A study of Mus musculus with 11 samples.

Results

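The genes followed here encode the core of the vascular basement membrane: the collagen IV chains *Col4a1* and *Col4a2*, the laminin chains *Lama4*, *Lamb1* and *Lamc1*, the nidogens *Nid1* and *Nid2*, the proteoglycan perlecan *Hspg2*, and the multiplexin collagens *Col15a1* and *Col18a1*. They were chosen by name and make up 10 of the 29307 listed genes. Of the 10, 9 passed the filter on low counts and entered the test across all genes, and *Col18a1* did not. RNA came from sinusoidal endothelial cells (ECs) of the liver, sorted from young adult, age-matched male C57BL/6J mice. The 5 germ-free (GF) mice were kept in sterile isolators without any microbiota. The 6 conventionally raised (CONV-R) mice came from the same colonies, were housed under specific-pathogen-free conditions with a gut microbiota, and ate the same diet. ECs were enriched with magnetic beads against CD146 and then sorted for CD31, CD105 and CD146, and their RNA was amplified as cDNA before sequencing, with 1 library per mouse. The authors reported fewer sorted ECs and less RNA from GF than from CONV-R livers, and a low viability of the sorted cells. The stated RNA input to amplification was the same, and the part of the yield in the levels was not tested. Neither group carried a transgene or a deletion, and GF mice lack a microbiota from birth, so the comparison is between lifelong conditions.

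A basement membrane is a thin sheet of matrix under an endothelium. Laminins are trimers of an α, a β and a γ chain that assemble into a polymer at the cell surface, collagen IV trimers form a second, crosslinked network, and nidogens and perlecan tie both networks together. Hepatic sinusoids are known for the lack of a continuous basement membrane, and their ECs nevertheless transcribe several of its components. Deposition of a continuous sheet, called capillarization, accompanies liver fibrosis.

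The promoters of these genes are shown because several members were compared as pairs that sit side by side in the genome or belong to one trimer. RefSeq on GRCm38.p6 gave a window of 300 bases, from 250 bases before to 50 bases after a start, for 7 of the 10 members. Windows for *Lama4*, *Lamc1* and *Nid2* were not used here. *Col4a1* and *Col4a2* lie head to head on chromosome 8, on opposite strands, and their annotated spans overlap by 22 bases. The overlap, in capitals, lies within chr8:11312801-11312830 and is printed on the + strand.
Col4a1 and Col4a2: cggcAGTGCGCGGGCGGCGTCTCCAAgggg
The stretches before the starts of 4 further members are given next, each on the + strand of GRCm38.p6, with capitals marking GC boxes, the letters GGGCGG or the reverse complement CCGCCC. They cover chr4:137468553-137468768 for *Hspg2*, chr13:13437352-13437550 for *Nid1*, chr12:31265043-31265233 for *Lamb1* and chr4:47207762-47208011 for *Col15a1*, and annotated exons were left out.
Hspg2: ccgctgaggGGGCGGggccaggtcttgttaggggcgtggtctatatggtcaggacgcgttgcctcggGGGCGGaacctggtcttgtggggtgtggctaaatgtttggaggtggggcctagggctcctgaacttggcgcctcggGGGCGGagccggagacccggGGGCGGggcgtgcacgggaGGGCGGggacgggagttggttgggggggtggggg
Nid1: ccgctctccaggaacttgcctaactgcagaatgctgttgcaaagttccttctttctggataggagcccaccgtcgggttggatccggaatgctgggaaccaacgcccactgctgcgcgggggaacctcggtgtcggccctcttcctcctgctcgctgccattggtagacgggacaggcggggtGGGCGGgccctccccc
Lamb1: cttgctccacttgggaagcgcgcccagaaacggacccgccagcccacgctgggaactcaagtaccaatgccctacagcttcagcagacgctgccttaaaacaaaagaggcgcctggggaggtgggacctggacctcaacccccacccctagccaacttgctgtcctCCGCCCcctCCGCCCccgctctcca
Col15a1: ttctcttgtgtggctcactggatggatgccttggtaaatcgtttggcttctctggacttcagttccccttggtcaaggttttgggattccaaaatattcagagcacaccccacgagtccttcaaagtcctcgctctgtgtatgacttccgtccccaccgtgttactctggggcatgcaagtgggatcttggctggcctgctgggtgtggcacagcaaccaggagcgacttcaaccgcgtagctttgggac
The whole windows held 5 GC boxes for *Hspg2*, 3 for *Col4a2*, 2 for *Lamb1*, 1 each for *Col4a1* and *Nid1* and 0 for *Col15a1*. *Col18a1* has 2 windows, with 3 and 0 boxes. Among all 32851 windows, 35.7% held at least 1 GC box and 10.7% held 3 or more. The letters TATAAA, searched on both strands, were in none of the members' windows and in 13.6% of all windows. The share of G and C was 74% for *Col4a1*, 73.7% for *Col4a2*, 70.3% for *Hspg2* and 52.3% for *Col15a1*, and the median over all windows was 52.7%.

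The libraries held between 7242717 and 16164588 counts and were fewest in GF 5, GF 6 and CONV-R 3, which held 7242717, 7819846 and 7922855 counts. Levels are given as CPM, a gene's counts over the TMM-scaled library total, and fold changes (Log2FC) are GF over CONV-R, so that a positive value is a higher level in GF mice. The ECs carried their own markers: 10 of 10 sinusoidal genes passed the filter, their summed level was 31422 to 43654 CPM in GF and 32704 to 39044 CPM in CONV-R libraries, and 0 of 10 passed the test. Of 10 Kupffer cell (liver macrophage) markers, 7 were higher in GF ECs (*Clec4f*, *Vsig4*, *Timd4*, *Adgre1*, *C1qb*, *C1qc* and *Csf1r*), with a summed level of 197 to 931 CPM in GF libraries, highest in GF 6, and 86.0 to 222 CPM in CONV-R libraries. Stellate cell markers summed to 209 to 275 CPM in GF and 106 to 272 CPM in CONV-R libraries, mostly *Hgf*, 3 of the 10 were under 1 CPM in every library, and 0 of the 4 tested passed. The Kupffer cell count was 3 without GF 6 and 4 without CONV-R 2, 4 or 5. Without GF 5, GF 6 and CONV-R 3, 4 of the Kupffer cell markers and 4 of the sinusoidal markers were higher in GF ECs and 2 stellate cell markers were lower. Leaving out GF 5 alone also gave 4 higher sinusoidal markers, and leaving out GF 6 alone gave 1 lower stellate cell marker. Across all 12905 tested genes, 965 passed an adjusted p of 0.05, which is 7.48%, with 4.80% higher and 2.67% lower in GF ECs, and the median Log2FC was -0.01.

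Of the 9 tested basement membrane genes, 5 had a higher level in GF ECs and none a lower one, against 4.80% of all tested genes that were higher. The 5 were *Col4a2*, *Lamb1*, *Lamc1*, *Nid2* and *Col15a1*. The abundant *Col4a1*, *Lama4*, *Nid1* and *Hspg2* did not pass, with Log2FC values between 0.09 and 0.34. The median Log2FC of the 9 was 0.46. In each of the 9 the values of the groups overlapped, whereas 5.59% of all tested genes had groups that did not overlap. The count depended on single libraries: it was 0 without GF 6, 3 without CONV-R 2, 4, 5 or 6 or GF 2, and between 4 and 5 without any of the others. Without the 3 libraries with the fewest counts it was 2, *Col4a2* and *Lamc1*. DESeq2 called 5 of 10 members and limma on the deposited log2 values called 0 of 10. The share of all tested genes that were higher in GF ECs was 5.20, 3.40, 4.65, 3.26, 3.62 and 3.64% without CONV-R 1 to 6 in turn, and 3.72, 3.79, 4.46, 5.95 and 3.15% without GF 1, 2, 4, 5 and 6. It was 4.25% without the 3 libraries with the fewest counts, 5.98% with DESeq2, 4.62% with limma on voom weights, 4.83% with DESeq2 size factors in edgeR, 2.86% with no filter, 4.80% with at least 10 counts in every library, 1.16% with limma on the deposited log2 values, 5.37% with a replicate block and 4.65% in the libraries of the block without it.

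**Figure D1:**
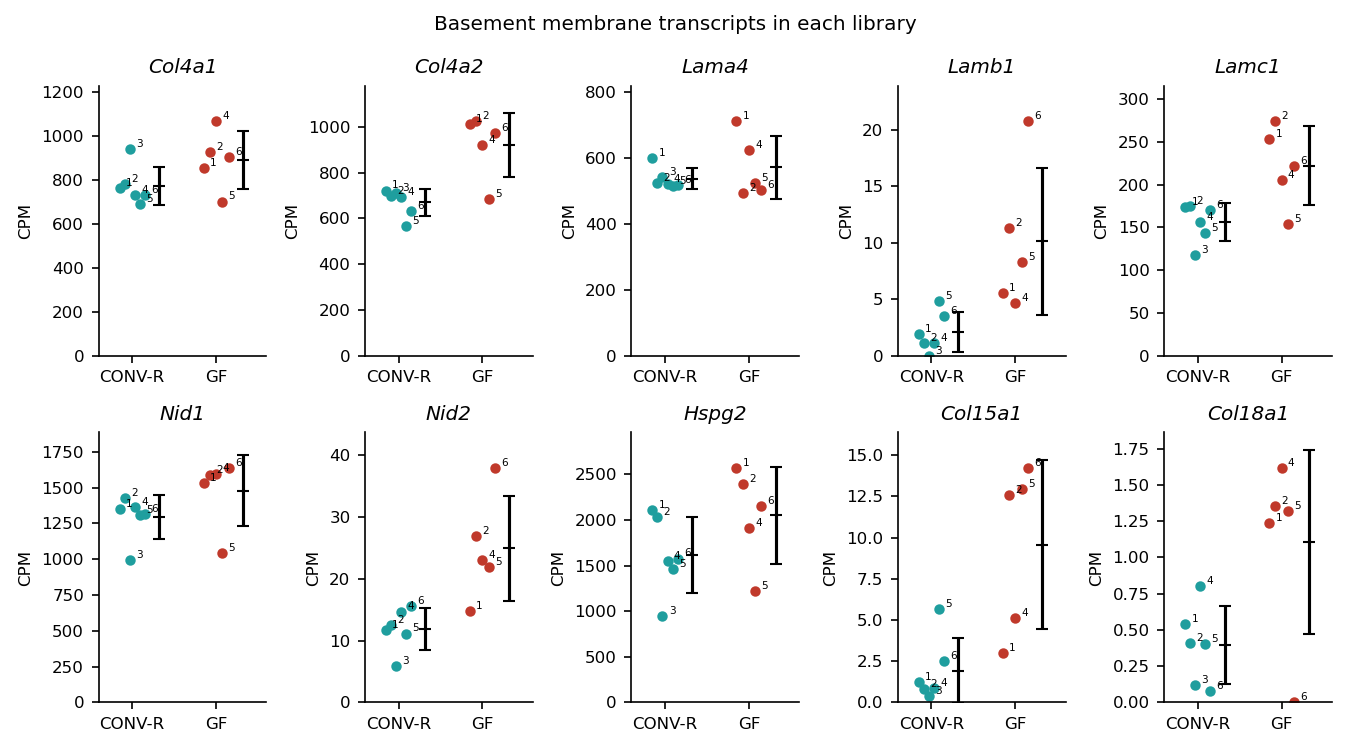
Level of each basement membrane gene in CPM (vertical axis, linear, from 0) in the 6 CONV-R (turquoise) and 5 GF (red) libraries. Each point is a mouse with its replicate number, and the bar is the mean ± SD. In *Col4a2*, *Lamb1*, *Lamc1*, *Nid1* and *Nid2*, 4 of 5 GF mice lie above every CONV-R mouse.

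**Figure D2:**
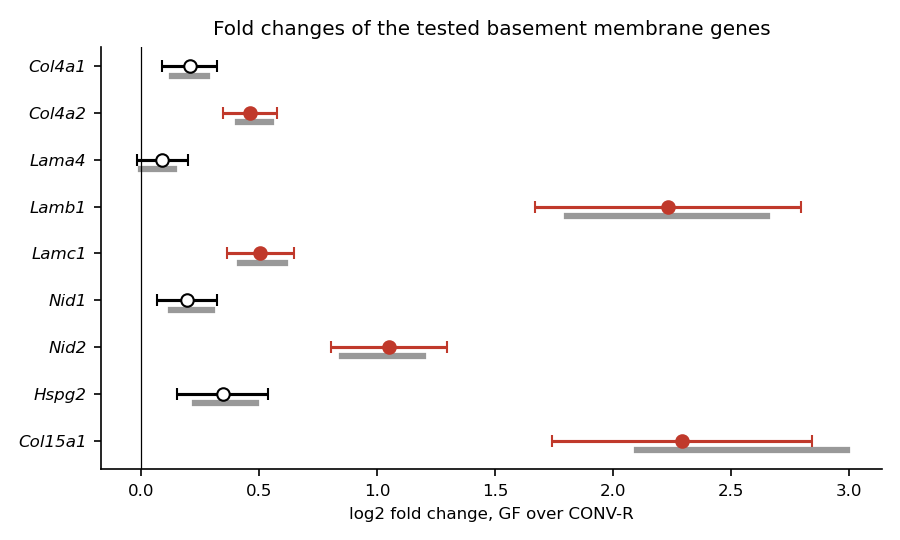
Log2FC of GF over CONV-R (horizontal axis) for the 9 tested genes, with its SE as whiskers. Filled red points passed an adjusted p of 0.05, and the grey bar beneath each spans the Log2FC with each of the 11 libraries left out in turn; *Lamb1* and *Col15a1* lie above 2 and the 4 genes with open points below 0.4.

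Per length of exon, the order of the transcripts was nearly the same in both groups. In CONV-R ECs *Nid1* led with 186 ± 22.0 CPM per kb (SD, n = 6), followed by *Hspg2* at 113 ± 29.4, *Col4a1* at 104 ± 11.7, *Col4a2* at 101 ± 8.99, *Lama4* at 44.6 ± 2.69 and *Lamc1* at 18.9 ± 2.71 CPM per kb. *Nid2* at 2.30 ± 0.66, *Col15a1* at 0.30 ± 0.31, *Lamb1* at 0.21 ± 0.18 and *Col18a1* at 0.056 ± 0.038 CPM per kb stood far below. Each gene of the leading group down to *Nid2* was above the next in all 6 libraries, except for the neighbours *Hspg2* and *Col4a1* (5 of 6) and *Col4a1* and *Col4a2* (3 of 6), and the order of *Col15a1*, *Lamb1* and *Col18a1* was likewise not the same in every library. In GF ECs *Col4a2*, at 139 ± 21.1 CPM per kb (n = 5), exceeded *Col4a1*, at 119 ± 17.7, in 4 of 5 libraries, and did not separate from *Hspg2* at 143 ± 36.9 CPM per kb. The mean level per kb of *Nid2*, *Col15a1* and *Lamb1*, whose Log2FC values were the highest of the 9, was below that of *Lamc1* in both groups.

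*Col4a1* (ENSMUSG00000031502, chr8:11198423-11312826, - strand of GRCm38) encodes the α1 chain, which is present as a pair of copies in the common collagen IV trimer. Its level was 692 CPM at the lowest, 746 at the median and 940.2 at the highest in the CONV-R libraries. The GF libraries gave 853, 926, 1066, 701 and 905 CPM for GF 1, 2, 4, 5 and 6. The groups overlapped widely, with only GF 4 above every CONV-R library and CONV-R 3 the highest of its group. The Log2FC was 0.20 (SE 0.11, adjusted p = 0.302, edgeR quasi-likelihood, Benjamini-Hochberg). With 1 library left out it ranged from 0.13 without GF 4 (adjusted p = 0.574, edgeR) to 0.28 without GF 5 (adjusted p = 0.110).

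*Col4a2* (ENSMUSG00000031503, chr8:11312805-11449287, + strand) encodes the α2 chain that completes this trimer. CONV-R libraries ranged from 567 over a median of 695 to 722 CPM. GF 1, 2, 4, 5 and 6 had 1013, 1025, 919, 684 and 972 CPM. GF 5 lay within the CONV-R range and the other 4 GF libraries lay above it. The Log2FC of 0.46 (SE 0.11) passed the test (adjusted p = 0.0199, edgeR, Benjamini-Hochberg). It was between 0.41 and 0.55 with any 1 library left out, and the adjusted p rose to between 0.0503 and 0.0552 without CONV-R 5, CONV-R 6, GF 2 or GF 6. Whether the counting used strand is not given in the sources used here, so reads from the short overlap of *Col4a1* and *Col4a2* cannot be told apart.

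The laminin α4 chain gene *Lama4* (ENSMUSG00000019846, chr10:38965515-39110188, + strand) encodes the α chain typical of endothelial laminins. CONV-R libraries ranged from 517 over 524 to 601 CPM, and GF 1, 2, 4, 5 and 6 had 713, 495, 626, 525 and 503 CPM. The GF values spanned the whole CONV-R range, with GF 1 and GF 4 above it and GF 2 and GF 6 below it. The Log2FC was 0.09 (SE 0.11, adjusted p = 0.678, edgeR, Benjamini-Hochberg), and -0.002 without GF 1.

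*Lamc1* (ENSMUSG00000026478, chr1:153218922-153332786, - strand) encodes the γ1 chain shared by most laminins. CONV-R libraries ranged from 118 over 164 to 175 CPM. GF 1, 2, 4, 5 and 6 had 253, 274, 205, 155 and 222 CPM. GF 5 again lay within the CONV-R range and the other 4 above it. The Log2FC was 0.50 (SE 0.14, adjusted p = 0.0391, edgeR, Benjamini-Hochberg). The call held in 2 of 11 fits with 1 library left out, without CONV-R 1 and without GF 5, and the adjusted p was between 0.0514 and 0.102 in the other 9.

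*Lamb1* (ENSMUSG00000002900, chr12:31265234-31329644, + strand) encodes the β1 chain. It was a rare transcript, with 25, 17, 0, 14, 60 and 45 counts in CONV-R 1 to 6 and 86, 117, 49, 63 and 153 counts in GF 1, 2, 4, 5 and 6. In CPM, CONV-R libraries ranged from 0 over 1.55 to 4.85, where the count of 0 in CONV-R 3 allows up to 0.37 CPM from counting error alone, and the GF libraries had 5.59, 11.3, 4.67, 8.33 and 20.8 CPM. CONV-R 5 exceeded GF 4, and every other GF library lay above all CONV-R libraries. The Log2FC was 2.23 (SE 0.56, adjusted p = 0.0230, edgeR, Benjamini-Hochberg). The highest value was that of GF 6, which also had the highest summed level of Kupffer cell markers (931 CPM, and 197 to 357 CPM in the other GF libraries), of cholangiocyte markers (36.8 and 13.6 to 26.9 CPM), of lymphocyte markers and, narrowly, of stellate cell markers (275 and 209 to 274 CPM). Other GF libraries led for the remaining lists. Markers of smooth muscle and portal fibroblasts were highest in GF 1 (153 CPM, and 66.7 CPM in GF 6). Those of large-vessel and capillary ECs and of hepatocytes were also highest in GF 1, and sinusoidal markers in GF 4. Without GF 6 the Log2FC of *Lamb1* fell to 1.80 (adjusted p = 0.0864, edgeR). The part of those cells in the result was not tested, and in sorted bulk ECs a higher share of another cell type and more RNA per cell cannot be told apart. Leaving out CONV-R 2 or CONV-R 4 gave an adjusted p of 0.0535 and 0.0569, and without the 3 libraries with the fewest counts the Log2FC was 1.503 (adjusted p = 0.0709).

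Among all 11 laminin chain genes, *Lamb1* was a minor β chain. *Lamb2*, which encodes the β2 chain, had 17.1 ± 3.36 CPM per kb in CONV-R and 22.9 ± 4.47 in GF ECs, against 0.21 ± 0.18 and 1.02 ± 0.65 CPM per kb for *Lamb1*. Its Log2FC was 0.42 (SE 0.15, adjusted p = 0.103, edgeR, Benjamini-Hochberg). Of the other α chains, *Lama5* had 10.3 ± 1.61 CPM per kb in CONV-R and 10.7 ± 1.35 in GF ECs and *Lama3* had 10.4 ± 1.09 and 9.92 ± 1.66, with Log2FC values of 0.05 and -0.07 that did not pass. *Lama4*, *Lamb2* and *Lamc1* were thus the most abundant α, β and γ transcripts per kb in both groups.

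**Figure D3:**
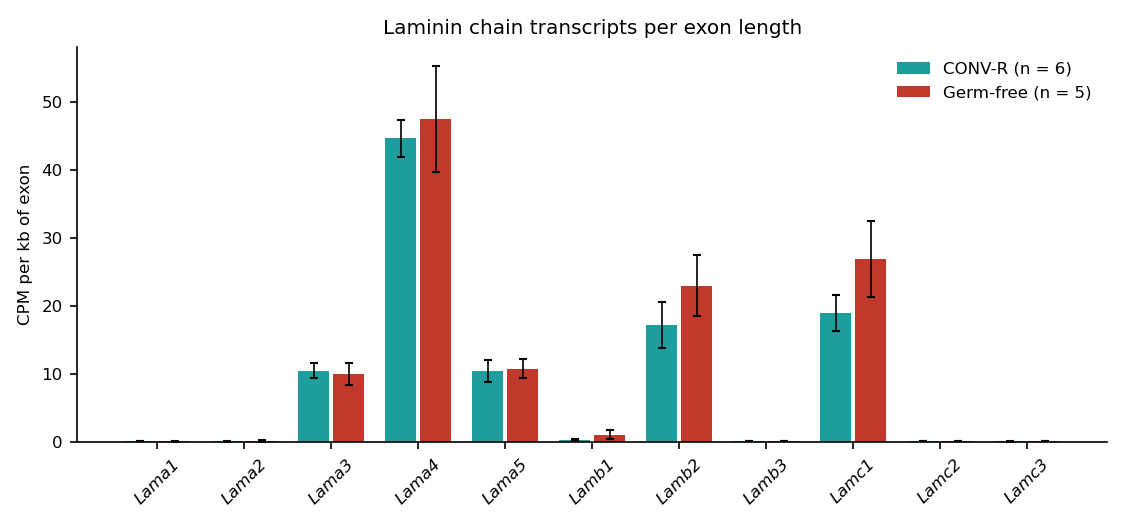
Mean level of the 11 laminin chain genes in CPM per kb of exon (vertical axis) in CONV-R (turquoise, n = 6) and GF (red, n = 5) ECs, with SD as error bars. *Lama4*, *Lamb2* and *Lamc1* are the highest α, β and γ chains, and *Lamb1* stays at 1.02 CPM per kb in GF ECs.

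*Nid1* (ENSMUSG00000005397, chr13:13437551-13512269, + strand) encodes nidogen-1, the linker between laminin γ1 and collagen IV. CONV-R libraries ranged from 993 over 1334 to 1425 CPM. GF 1, 2, 4, 5 and 6 had 1531, 1588, 1599, 1041 and 1639.7 CPM. CONV-R 3 and GF 5 lay far below the rest of their groups, and the 4 other GF libraries lay above all CONV-R libraries. The Log2FC was 0.19 (SE 0.13, adjusted p = 0.380, edgeR, Benjamini-Hochberg). It was 0.30 without GF 5 (adjusted p = 0.0819, edgeR) and 0.13 without CONV-R 3 (adjusted p = 0.549).

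*Nid2* (ENSMUSG00000021806, chr14:19751265-19811787, + strand) encodes the related nidogen-2. CONV-R libraries ranged from 5.89 over 12.1 to 15.5 CPM, and GF 1, 2, 4, 5 and 6 had 14.7, 26.9, 23.0, 21.9 and 38.0 CPM. GF 1 lay within the CONV-R range and the 4 others above it, with GF 6 the highest. The Log2FC was 1.05 (SE 0.24, adjusted p = 0.0141, edgeR, Benjamini-Hochberg), and the call was lost in 1 of 11 fits, without GF 6 (Log2FC 0.85, adjusted p = 0.0527), and without the 3 libraries with the fewest counts (0.70, adjusted p = 0.0586). *Nid2* overlaps *Rtraf* on the opposite strand, whose reads could be counted with it where strand was not used.

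Perlecan, the heparan sulfate proteoglycan encoded by *Hspg2* (ENSMUSG00000028763, chr4:137468769-137570630, + strand), had the highest summed counts of the 10 genes in each group. In CONV-R 3 it had 7747 counts, fewer than the 8091 of *Nid1*. CONV-R libraries ranged from 951 over 1564 to 2107 CPM, and GF 1, 2, 4, 5 and 6 had 2572, 2394, 1912, 1216 and 2150.0 CPM. CONV-R 3 and GF 5 were again the lowest of their groups, and 3 of 5 GF libraries lay above all CONV-R libraries. The Log2FC was 0.34 (SE 0.19, adjusted p = 0.304, edgeR, Benjamini-Hochberg). With 1 library left out it ranged from 0.23 without CONV-R 3 (adjusted p = 0.447, edgeR) to 0.48 without GF 5 (adjusted p = 0.0875).

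*Col15a1* (ENSMUSG00000028339, chr4:47208161-47313167, + strand) encodes a collagen of the outer face of basement membranes. CONV-R 1 to 6 had 16, 12, 3, 11, 70 and 32 counts and GF 1, 2, 4, 5 and 6 had 46, 130, 54, 98 and 105. This gave 0.37 over 1.06 to 5.65 CPM in the CONV-R libraries and 2.99, 12.6, 5.14, 13.0 and 14.2 CPM in the GF libraries. CONV-R 5 lay above GF 1 and GF 4, and 3 of 5 GF libraries lay above all CONV-R libraries. The Log2FC was 2.29 (SE 0.55, adjusted p = 0.0169, edgeR, Benjamini-Hochberg), 2.11 without GF 6 (adjusted p = 0.0512) and 2.99 without CONV-R 5 (adjusted p = 0.0023). Without the 3 libraries with the fewest counts it was 1.62 (adjusted p = 0.122).

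*Col18a1* (ENSMUSG00000001435, chr10:77052178-77166548, - strand) encodes the collagen from which endostatin is cut. It had 7, 6, 1, 10, 5 and 1 counts in CONV-R 1 to 6 and 19, 14, 17, 10 and 0 counts in GF 1, 2, 4, 5 and 6, and was not tested. GF 6 lay below every CONV-R library, where a count of 0 allows up to 0.41 CPM, and the other 4 GF libraries, at 1.23 to 1.62 CPM, lay above all CONV-R libraries, at 0.078 to 0.80 CPM. DESeq2, which applies another filter, gave a Log2FC of 1.48 (adjusted p = 0.215). *Col18a1* overlaps *Slc19a1* on the opposite strand.

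Ratios between chains were taken within each library, from log2 CPM with a prior count of 2 that sets the value of a gene with few or no counts, and 6 were compared by an exact permutation of all splits of the 11 mice, two-sided, whose smallest possible p is 0.00216. The log2 ratio of *Col4a2* to *Col4a1* was 0.05 ± 0.18 (SD) in GF libraries and -0.20 ± 0.13 in CONV-R libraries, a difference of 0.25 (exact p = 0.0346, adjusted 0.0584 over the 6 ratios). That of *Nid2* to *Nid1* differed by 0.86 (exact p = 0.0108, adjusted 0.0519), with 4 of 5 GF libraries above every CONV-R library. That of *Lamb1* to *Lamc1* differed by 2.07 (exact p = 0.0173, adjusted 0.0519), by 2.46 with a prior count of 0.5 and by 1.41 in the deposited log2 values. CONV-R 3 had a count of 0 for *Lamb1*, so that its ratio was set by the prior count, and the difference was 1.53 without it. None of these passed the adjusted threshold with all 11 libraries, and the groups overlapped in each. With 1 library left out some did: *Nid2* to *Nid1* without GF 1 (exact test, adjusted p = 0.0286) or GF 4 (0.0429), *Col4a2* to *Col4a1* without GF 4 (0.0286), and *Lamb1* to *Lamc1* without CONV-R 5 or GF 4 (0.0476 in each). The log2 ratio of *Lama4* to *Lamc1* was 1.38 ± 0.36 in GF libraries and 1.79 ± 0.23 in CONV-R libraries, lower by 0.41 in GF (exact p = 0.0390, adjusted 0.0584), with 3 of 5 GF libraries below every CONV-R library. Between the α chains *Lama4* and *Lama5* the ratio differed by 0.02 (exact p = 0.894), and between *Col15a1* and *Col18a1* by 1.48 (exact p = 0.190, adjusted 0.229). The last value rested largely on GF 6, whose *Col18a1* count of 0 leaves its log2 ratio of 6.35 to the prior count, and was 0.66 without GF 6.

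**Figure D4:**
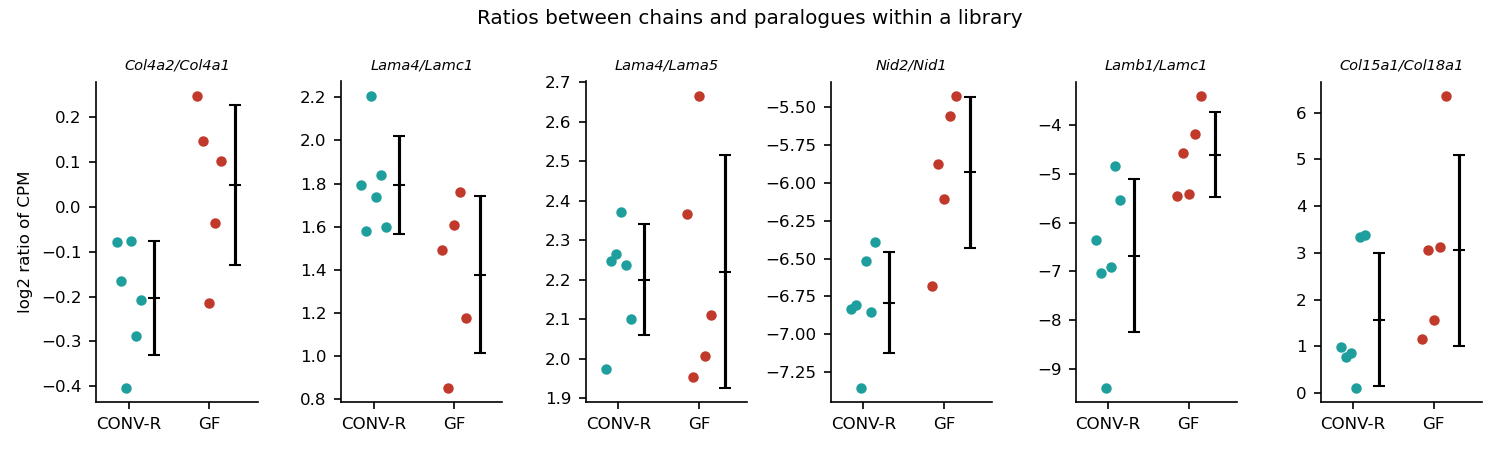
Log2 ratio of CPM between chains or paralogues in each library (vertical axis, a scale of its own per panel, with a prior count of 2 in both genes) for CONV-R (turquoise, n = 6) and GF (red, n = 5), with mean ± SD. *Nid2*/*Nid1* and *Col4a2*/*Col4a1* have 4 of 5 GF libraries above all CONV-R libraries; *Lama4*/*Lama5* does not separate.

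Within groups, members of a pair could vary together from mouse to mouse, and 5 pairs were compared after the group means were removed (n = 11 libraries, exact permutation within groups, adjusted over the 5 pairs). *Col4a1* and *Col4a2* had Pearson's r = 0.67 (exact p = 0.0692, adjusted 0.219) and Spearman's rho = 0.58 (exact p = 0.0759, adjusted 0.194). Without CONV-R 3 and GF 5, the libraries farthest from the median in *Col4a1*, r was 0.11 and rho 0.37. Here and below, the 2 libraries left out were chosen by the first gene of the pair alone. Such a choice can lower r also where a pair varies together, so it cannot decide whether r rested on them. *Nid1* and *Nid2* had r = 0.54 (exact p = 0.0875, adjusted 0.219) and rho = 0.58 (exact p = 0.0776, adjusted 0.194), and r = 0.50 without CONV-R 3 and GF 5. For *Lamb1* and *Lamc1* r was 0.41 (exact p = 0.179, adjusted 0.298) with rho = 0.12 (exact p = 0.727, adjusted 0.784), and r was 0.13 without CONV-R 3 and CONV-R 5. For *Lama4* and *Lamc1* r was 0.14 (exact p = 0.757) with rho = 0.11 (exact p = 0.784), and r was -0.31 without CONV-R 1 and GF 1. *Col15a1* and *Col18a1* had r = -0.22 (exact p = 0.525, adjusted 0.656) and rho = -0.35 (exact p = 0.312, adjusted 0.520), and r = -0.54 without CONV-R 3 and CONV-R 5. No pair passed the adjusted threshold.

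Enzymes and chaperones that modify, fold, export and crosslink collagen made up a list of 24 genes. Of these, 21 were tested, 6 were higher and 1 was lower in GF ECs, where 4.80% of all tested genes were higher and 2.67% lower, and 620 of all 965 calls were higher. The median Log2FC of the list was 0.43, and that of all tested genes -0.01. *P4ha1* and *P4ha2*, the catalytic subunits of prolyl 4-hydroxylase, had Log2FC values of 0.79 and 0.62, and their shared β subunit *P4hb*, also a disulfide isomerase, had 0.64. *P4ha2* ranged from 39.2 to 57.7 CPM in GF and from 20.4 to 34.5 CPM in CONV-R libraries, without overlap, as in 5.59% of all tested genes. *Plod2*, a lysyl hydroxylase of collagen, had 9.02 ± 3.92 CPM in GF against 2.82 ± 1.78 CPM in CONV-R ECs (Log2FC 1.66, SE 0.40, adjusted p = 0.0166, edgeR, Benjamini-Hochberg). *Crtap* and *Ppib*, partners in the prolyl 3-hydroxylase complex, had Log2FC values of 0.67 and 0.75. The lysyl oxidase family member *Loxl3* was lower, at 29.0 ± 5.76 against 46.0 ± 11.3 CPM (Log2FC -0.66, adjusted p = 0.0321, edgeR, Benjamini-Hochberg), again without overlap. Its call held in 6 of 11 fits with 1 library left out and was lost without CONV-R 2, CONV-R 5, GF 4, GF 5 or GF 6 (adjusted p up to 0.0761) and without the 3 libraries with the fewest counts (adjusted p = 0.0594). Peroxidasin *Pxdn*, which crosslinks collagen IV, had 639 ± 90.3 and 601 ± 101 CPM (Log2FC 0.09, adjusted p = 0.731), and *Serpinh1*, the collagen chaperone, had a Log2FC of 0.49 (adjusted p = 0.0941). Without GF 6, 3 genes of the list passed, *P4ha1*, *P4ha2* and *Plod2*, and the count was 3 without CONV-R 5 and 4 without GF 2 or GF 4. *P4ha1* passed in all 11 fits with 1 library left out, *Crtap* and *Plod2* in 10 (*Plod2* was also lost without the 3 libraries with the fewest counts, Log2FC 1.52, adjusted p = 0.0526), *P4ha2* in 9, *P4hb* in 6 and *Ppib* in 4. In limma on the deposited log2 values 0 of 24 passed, as did 0 of the 22 other basement membrane genes and 0 of the 13 receptors described next.

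Of 22 other genes of the basement membrane, 12 were tested and 1 passed, against 7.48% of all tested genes, which is near the background. The median Log2FC of the 12 was 0.11, 0.06 to 0.20 with 1 library left out (lowest without CONV-R 5, highest without CONV-R 3), 0.49 over the 18 genes that DESeq2 tested and 0.54 over all 22 with no filter. It was *Ntn4*, whose product netrin-4 binds laminin γ1, with 581 ± 189 CPM in GF against 354 ± 58.9 CPM in CONV-R ECs (Log2FC 0.71, SE 0.17, adjusted p = 0.0157, edgeR, Benjamini-Hochberg). The GF libraries, at 437 to 908 CPM, lay above all CONV-R libraries, at 285 to 425 CPM. The call held in all 11 fits with 1 library left out, and the list's count was 3 without GF 5. Of 13 receptors for laminin and collagen, 10 were tested and 2 were higher, against 4.80% of all tested genes, with a median Log2FC of 0.41. *Itga1*, the α1 integrin chain that binds collagen IV, had 1164 ± 160 CPM in GF against 861 ± 127 CPM in CONV-R ECs (Log2FC 0.43, adjusted p = 0.0369, edgeR, Benjamini-Hochberg). *Itga3*, which binds laminins, had 12.2 ± 4.98 and 4.64 ± 2.24 CPM (Log2FC 1.40, adjusted p = 0.0261, edgeR, Benjamini-Hochberg). *Itga1* passed in 3 of 11 fits with 1 library left out and *Itga3* in 6, and without the 3 libraries with the fewest counts *Itga3* did not pass (Log2FC 1.21, adjusted p = 0.119). The receptor count was 0 without GF 1, GF 2 or GF 6, 1 without any one of CONV-R 2 to 6 or GF 4, and 4 without GF 5. Of 10 fibrillar and microfibrillar collagens, 4 were tested and 0 passed. The sign of their median Log2FC depended on which genes were tested: it was -0.14 over the 4, 0.33 over the 7 that DESeq2 tested and 0.37 over all 10 with no filter. It was 0.05 without the 3 libraries with the fewest counts, and -0.71 to -0.02 with 1 library left out, with -0.58, -0.70, -0.71, -0.42 and -0.52 over 3 genes without CONV-R 1, 2, 4 and 6 and GF 1, and -0.21 and -0.25 without CONV-R 3 and GF 2. The basement membrane set itself had a median of 0.46 to 0.48 in the main fit, with DESeq2 and with no filter. It was 0.34 over the 7 members with at least 10 counts in every library. Limma on the deposited log2 values gave 0.41, and the fit without the 3 libraries with the fewest counts 0.56. The most abundant were *Col5a2*, at 84.6 ± 12.8 and 67.4 ± 11.3 CPM (Log2FC 0.33, adjusted p = 0.165), and *Col6a3*, at 5.80 ± 5.90 and 9.08 ± 3.87 CPM. *Col1a1*, *Col1a2* and *Col3a1*, the main fibrillar collagens of fibroblasts and activated stellate cells, averaged below 0.70 CPM in both groups.

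**Figure D5:**
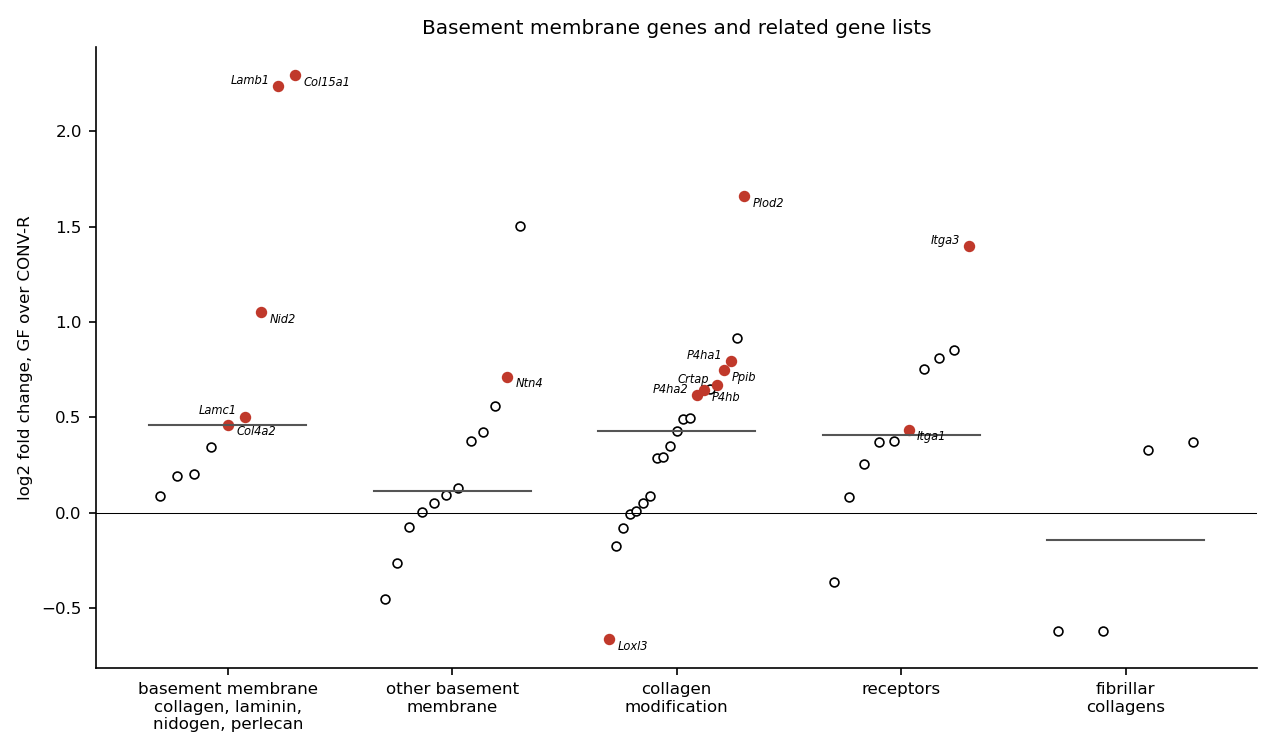
Log2FC of GF over CONV-R (vertical axis) for every tested gene of the basement membrane set and of 4 related lists. Red points, named, passed an adjusted p of 0.05, open points did not, and the grey line is the median of the tested genes of each list, 0.46 for the basement membrane set. The medians of the other basement membrane genes (0.11) and of the fibrillar collagens (-0.14) were 0.54 and 0.37 with no filter on low counts.

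Markers of other cells that could carry basement membrane transcripts were measured beside these counts. *Cd34*, a marker of large-vessel and capillary ECs, had 29.2 ± 7.24 CPM in GF against 12.6 ± 3.32 CPM in CONV-R ECs (Log2FC 1.20, adjusted p = 0.00183, edgeR, Benjamini-Hochberg). The other 8 tested markers of such ECs did not pass, and the list summed to 844 to 1151 CPM in GF and 817 to 1216 CPM in CONV-R libraries. The count of this list was 3 without GF 2 or GF 5 (2 higher and 1 lower in each) and 2 without CONV-R 5, both higher. *Fbln2*, expressed by portal fibroblasts, had 82.8 ± 43.9 and 26.3 ± 11.8 CPM (Log2FC 1.66, adjusted p = 0.00445), and the other 2 tested markers of smooth muscle and portal fibroblasts did not pass. *Spp1*, listed for cholangiocytes, had 13.2 ± 0.96 and 2.47 ± 3.04 CPM (adjusted p = 0.0161). The summed markers of smooth muscle and portal fibroblasts were 53.0 to 153 CPM in GF and 21.5 to 54.8 CPM in CONV-R libraries, mostly *Fbln2* itself, and those of cholangiocytes 13.6 to 36.8 and 0.14 to 8.96 CPM. The part of these cells in the levels of *Lamb1*, *Col15a1* and *Nid2* was not tested.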

How the data were processed

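Libraries from the liver ECs of 6 CONV-R and 5 GF mice were compared, and groups and replicate numbers follow the labels. The authors deposited raw counts per gene, made from trimmed reads with STAR (genome GRCm38) and featureCounts. They also deposited values on a log2 scale, normalized across libraries with the DESeq method. They left out 1 further GF library with fewer mapped reads. Annotation release and strand setting are not given in the sources used here.

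The basement membrane genes, the related lists and the tests were chosen with earlier results of these data known. Counts were filtered with filterByExpr, scaled by TMM and tested with the quasi-likelihood test of edgeR 4.0.16 in R 4.3.3, with Benjamini-Hochberg adjustment over all tested genes and a threshold of 0.05. Named are the 10 members, genes of the lists that passed (or the 2 most abundant tested where none did), markers that passed, and the 5 genes most like *Col4a1*. *Lama3*, *Lama5*, *Lamb2*, *Pxdn*, *Serpinh1*, *Hgf*, *Col1a1*, *Col1a2* and *Col3a1* were named after their values were seen. Lengths and positions came from GENCODE M21. Alternatives were DESeq2 1.42.0, limma 3.58.1 on voom weights and on the deposited log2 values, other filters and scalings, leaving out each library, a replicate block and, chosen after seeing the data, leaving out the 3 libraries with the fewest counts. On simulated counts for this comparison (13038 genes), 56% of changes of 1 and 99% of changes of 2 on the log2 scale were recovered, and 4.32% of calls were unchanged genes. The changed genes were drawn from those with a mean above 1 CPM, and all genes were given the same dispersion. These shares need not hold for genes that vary more between mice. No libraries of a group agreed within sampling noise (lowest chi-square per degree of freedom 8.84). Counts without molecular identifiers give limits for counting error only.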

Additional observations from a re-analysis of the deposited data

Results flagged for a closer look

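In 32 groups of values of basement membrane genes and ratios, 6 held a library far from the rest of its group. Chance alone gives about 1 in 20 for a single group. The groups share libraries and the ratios reuse the genes, so no excess can be read from the count. Levels are log2 CPM. GF 5 was the lowest of its group for *Col4a2* at 9.42 and for *Nid1* at 10.02. CONV-R 3 was the lowest of its group for *Nid1* at 9.96 and for *Nid2* at 2.60. GF 6, with a count of 0, was the lowest for *Col18a1* at -2.50, and CONV-R 1 was the highest of its group for *Lama4* at 9.23. CONV-R 3, GF 5 and GF 6 are the 3 libraries with the fewest counts, and the part of depth in these values was not tested.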

How the results depend on the processing

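The number of all genes that passed was 965 with edgeR, 1527 with DESeq2, 453 with limma on the deposited log2 values and 622 to 1260 with 1 library left out. Of the basement membrane genes, 5 passed with DESeq2, voom, DESeq2 size factors in edgeR or no filter, 3 with at least 10 counts in every library (7 tested), 0 with limma on the deposited log2 values, 2 without the 3 libraries with the fewest counts, and 0 to 5 with 1 library left out. Same-numbered libraries are different mice, and their deviations correlated between -0.014 and 0.20. Differently numbered libraries were not compared, so these values cannot decide whether the numbers mark libraries handled together. With the replicate block 5 basement membrane genes and 1101 of all genes passed. In the same libraries without the block 4 basement membrane genes and 931 of all genes passed. The Log2FC of every tested member stayed positive, except *Lama4* (-0.0020 to 0.14 with 1 library left out). With 1 library left out, differences of log2 ratios were 0.20 to 0.32 (*Col4a2*/*Col4a1*), 1.53 to 2.44 (*Lamb1*/*Lamc1*), 0.74 to 1.05 (*Nid2*/*Nid1*), -0.51 to -0.28 (*Lama4*/*Lamc1*), 0.66 to 1.95 (*Col15a1*/*Col18a1*) and -0.090 to 0.087 (*Lama4*/*Lama5*). Pearson's r of *Lama4* and *Lamc1* turned to -0.31 without 2 libraries. The cause of these shifts was not tested. Depth limits *Lamb1*, *Col15a1* and *Col18a1*, which had 0 to 153 counts per library.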

Other observations

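As a description, the 5 tested genes outside the basement membrane set whose levels varied most like *Col4a1* across the 11 libraries, after the group means were removed, were *Rpap3* (Pearson's r = 0.94), *Sirpa* (0.93), *Sf3b4* (0.93), *Klk8* (0.93) and *Lig4* (0.93). They were picked as the highest among all tested genes, where a high r over 11 libraries can arise by chance, and r was not tested. None of them passed the test between the groups, with Log2FC values between -0.33 and 0.15.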
